A study of Saccharomyces cerevisiae with 12 samples.

Results

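Chromosome XII of budding yeast outside the ribosomal DNA (rDNA) was described here as a left side and a right side, through windows of 25 kb placed every 5 kb along the genome. A window belonged to the left side if it ended before position 450000 and to the right side if it started after position 495000, which gave 85 windows on the left and 117 on the right, 202 of the 2441 windows in all. The rule used positions only. A further 14 windows of chromosome XII, which reach into or next to the rDNA, were left out by it, and the 2207 nuclear windows of the other chromosomes served for comparison. The left side spanned chrXII:1-445000 (R64 build), with 210 annotated protein-coding genes and 12 replication origins, and held the chromosomal left arm, the centromere and the stretch of the right arm up to the rDNA. The right side, which corresponds to ChrXIIr, spanned chrXII:495001-1078177, with 286 protein-coding genes, 14 origins and 4 Ty elements.

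The data were genomic DNA reads from 4 genotypes of diploid yeast, each with 1 library from log phase, 1 from cells aged for 24 h and 1 from cells aged for 48 h in YPD, 12 libraries in all. The genotypes were the rad52 mutant, the spt3 mutant and the sac3 mutant, each with both copies of the gene deleted and marked with TRP1, and the wild type, which lacked a functional TRP1. All strains, the wild type included, carried the mother enrichment program (MEP). In this system a Cre recombinase fused to an estradiol-binding domain is driven by the daughter-specific SCW11 promoter and disrupts UBC9 and CDC20 in newborn daughters once β-estradiol is added, so that only mother cells continue to divide and can be purified at a known age. By the methods, estradiol was added later to the sac3 and rad52 cultures than to the others. No genotype and time point had a replicate, so a change could be tested only over the genotypes. Each library pooled the DNA of many cells, so that extra copies in some cells and in all cells cannot be told apart.

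The rDNA of yeast is a tandem array of ribosomal RNA genes that lies on the right arm of chromosome XII and divides it into a centromere-proximal and a centromere-distal stretch. Recombination within the array can release circular copies (ERCs) that mother cells retain and accumulate with age. Rad52 is the strand-annealing protein on which most homologous recombination in yeast depends and is needed for ERC formation. Spt3 is a subunit of the SAGA coactivator and Sac3 the scaffold of TREX-2, complexes that link ERCs to the nuclear pore. A replication origin (ARS) usually carries a short ARS consensus bound by the origin recognition complex, and the point centromere holds the CDEI and CDEIII elements around an AT-rich CDEII.

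Landmark sequences were chosen to show where the sides lie and what their high windows hold. CEN12 lies on the left side at chrXII:150828-150947 between DNM1 and YLR001C, outside any gene, and is given on the minus strand with CDEI and CDEIII in capitals. ARS1217 (chrXII:512867-513115, minus strand, overlapping YLR177W) is the right-side origin closest to the rDNA, ARS1232 (chrXII:1007186-1007475, plus strand, overlapping ECM30) lies in the highest windows near the right end, and ARS1215 (chrXII:412686-412893, plus strand, between PDC5 and SLX4, outside any gene) lies in the highest windows of the left side. Capitals in the origins mark exact matches to the ARS consensus on either strand.
CEN12: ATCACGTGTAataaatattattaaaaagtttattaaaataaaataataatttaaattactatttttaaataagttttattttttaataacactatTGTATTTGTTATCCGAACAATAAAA
ARS1232: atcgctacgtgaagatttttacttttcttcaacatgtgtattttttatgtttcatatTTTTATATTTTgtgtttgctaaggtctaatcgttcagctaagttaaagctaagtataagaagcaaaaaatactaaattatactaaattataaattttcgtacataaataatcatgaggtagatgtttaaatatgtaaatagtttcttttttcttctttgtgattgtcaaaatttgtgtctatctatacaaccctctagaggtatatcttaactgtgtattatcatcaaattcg
ARS1217: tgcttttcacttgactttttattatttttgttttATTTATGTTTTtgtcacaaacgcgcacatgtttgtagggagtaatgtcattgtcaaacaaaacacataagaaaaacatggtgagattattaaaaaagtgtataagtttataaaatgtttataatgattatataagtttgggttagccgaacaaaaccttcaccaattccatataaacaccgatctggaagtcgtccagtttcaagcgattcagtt
ARS1215: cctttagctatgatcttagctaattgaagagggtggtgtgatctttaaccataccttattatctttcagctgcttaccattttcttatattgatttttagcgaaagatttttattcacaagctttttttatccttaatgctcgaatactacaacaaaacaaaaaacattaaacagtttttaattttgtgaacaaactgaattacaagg
An exact match occurred in 4 of the 14 annotated origins of the right side and in 2 of the 12 of the left side, against 35.2% of the 352 annotated nuclear origins and 1.57% of all stretches of 250 bases. ARS1215 held none in the annotated interval.

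Values are size-factor normalised read signals per window. A full-length window of either side held a median of 7984 to 22891 reads per library, a counting error of 0.661% to 1.12%, which does not cover the variation between cultures. The windows are wide for a check of the deleted genes. The window holding SAC3, of which the gene fills 15.6%, lay at 0.832 to 0.858 of the median window outside chromosome XII in the 3 sac3 libraries and at 0.957 to 1.02 in the other 9. SPT3 and RAD52 fill 4.06% and 5.66% of their windows, and there the ranges of the mutant and the other libraries overlapped, so these labels could not be checked.

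The right side gained signal with age most in rad52 cells, to a smaller extent in the wild type and spt3 cells, and least in sac3 cells, while the left side stayed within 6% of its log phase level by its median in every aged library. Relative to the median window outside chromosome XII, the right side of rad52 cells lay at 1.08 at log phase, with 1.49 at 24 h and 1.52 at 48 h. That of spt3 cells lay at 1.09, 1.15 and 1.16 at the same 3 times. The sac3 cells gave 1.07, 1.06 and 1.08, and the wild type gave 1.07, 1.17 and 1.29. The left side lay at 1.03, 1.05 and 1.06 in rad52 cells and at 1.07, 1.02 and 1.06 in spt3 cells. It lay at 1.03, 1.02 and 1.02 in sac3 cells and at 1.04, 1.06 and 1.09 in the wild type. All 4 log phase libraries thus had a right side 1.02 to 1.04 times as high as the left, and the gap between the sides was wider at 48 h than at log phase in every genotype, by the least in sac3 cells.

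**Figure D1:**
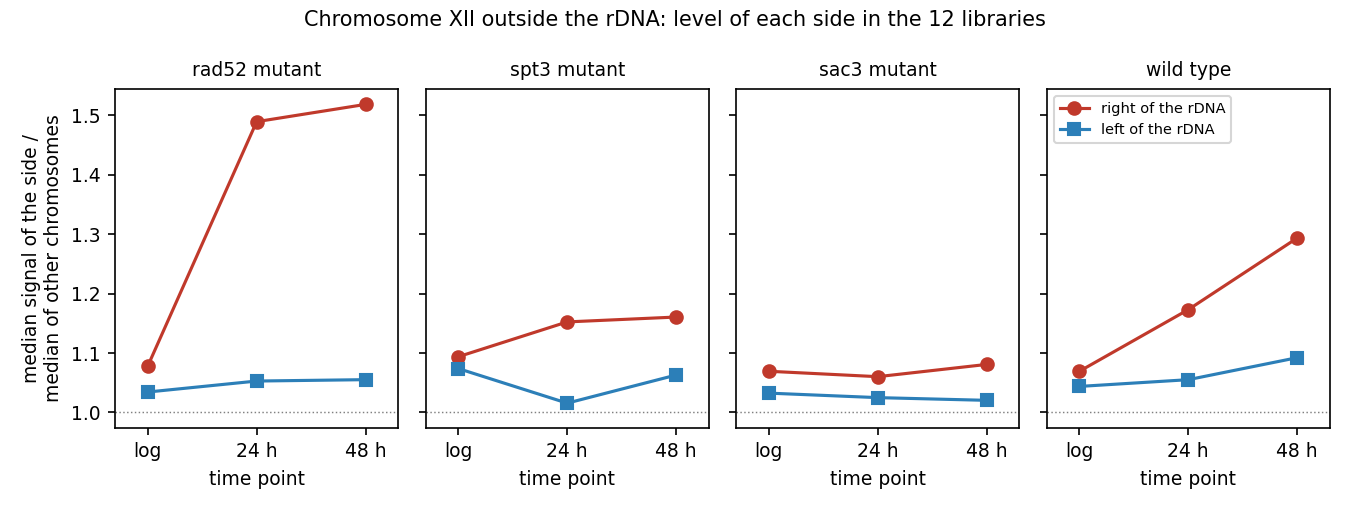
Median signal of the windows right (circles) and left (squares) of the rDNA over the median window outside chromosome XII of the same library, by time point, 1 panel per genotype. The right side of rad52 cells stood at 1.49 at 24 h, with 1.52 at 48 h, and that of the wild type at 1.17 and 1.29, whereas the left side lay between 1.02 and 1.09 in all 12 libraries.

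Each aged library was then divided, window by window, by the log phase library of its genotype. On the right side the median ratio was 1.41 at 24 h and 1.43 at 48 h in rad52 cells, 1.06 and 1.09 in spt3 cells, 1.03 and 1.05 in sac3 cells and 1.11 and 1.23 in the wild type. On the left side it was 1.02 and 1.04 in rad52 cells, 0.942 and 0.985 in spt3 cells, 0.998 and 0.998 in sac3 cells and 1.02 and 1.03 in the wild type. Windows outside chromosome XII had medians of 0.988 to 1.02. In rad52 cells 117 of 117 right-side windows exceeded 1 at 24 h, as did 114 at 48 h, and in the wild type 112 and 117 did. In spt3 cells 88 and 94 of them did (75.2% and 80.3%), and in sac3 cells 79 and 83 (67.5% and 70.9%). Outside chromosome XII the share of windows above 1 was 51.8% and 48.8% in rad52 cells and 47.4% and 44.8% in the wild type at the same ages. It was 48.4% and 47.4% in spt3 cells and 60.5% and 51.6% in sac3 cells.

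The difference between the sides was expressed as the log2 median ratio of the right side minus that of the left. At 48 h it was 0.46 in rad52 cells, 0.14 in spt3 cells, 0.07 in sac3 cells and 0.25 in the wild type, a mean of 0.23 ± 0.17 (SD, n = 4 genotypes). At 24 h it was 0.47, 0.17, 0.04 and 0.12 in the same order, a mean of 0.20 ± 0.19 (SD, n = 4 genotypes). The difference was positive in all 8 aged libraries. Its spread over the genotypes was nearly as large as its mean, and without the rad52 libraries the mean was 0.15 at 48 h and 0.11 at 24 h. The difference in rad52 cells was of similar size at both ages, whereas that of the wild type reached 0.25 at 48 h after 0.12 at 24 h.

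Arms of the other chromosomes give the background for such medians. In rad52 cells the right side exceeded all 30 other arms at both ages, the highest of which reached 1.11 at 24 h and 1.06 at 48 h. In the wild type it exceeded 28 arms at 24 h, when the right arm of chromosome VI reached 1.14, and all 30 at 48 h. The right side of spt3 cells exceeded 25 and 28 arms, and that of sac3 cells exceeded 20 and 20. The left side lay within the range of the other arms in all 8 aged libraries, above 3 to 26 of them.

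**Figure D2:**
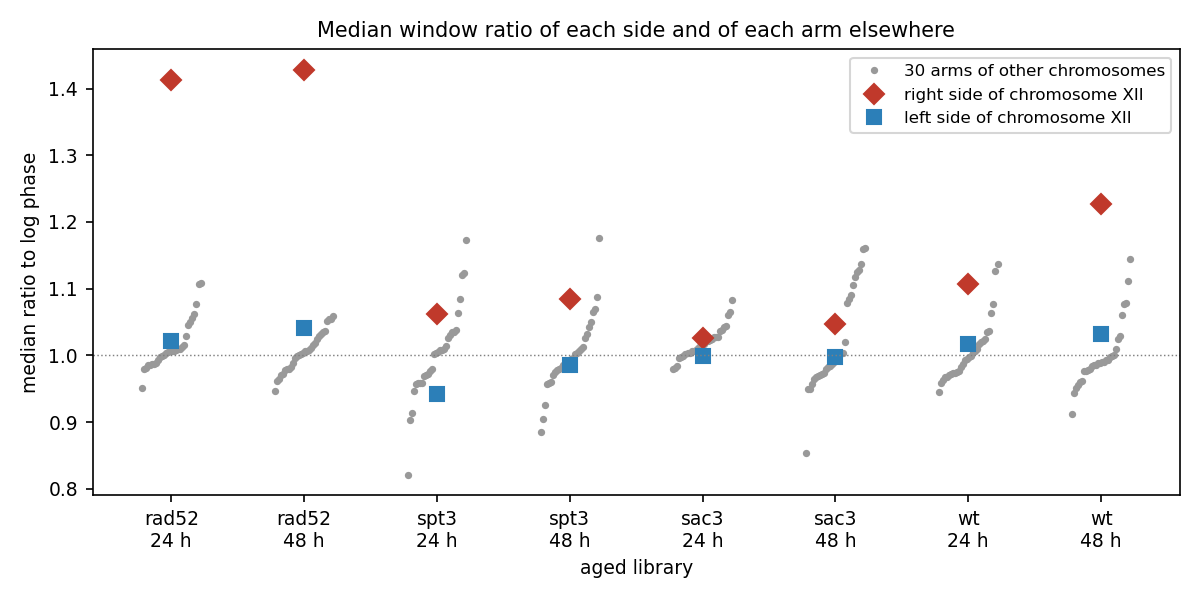
Median window ratio to log phase (y axis) of the right side (red diamonds), the left side (blue squares) and each of the 30 arms of other chromosomes (grey points, sorted by value within a library) in the 8 aged libraries. The right side lay above every other arm in both rad52 libraries, at 1.41 and 1.43, and in the wild type at 48 h, at 1.23, and inside the range of the arms in the other 5 libraries.

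A response to age common to the genotypes was tested by fitting limma to log2(signal + 1) of all 2423 nuclear windows, with terms for genotype and for age, where both aged time points were set against log phase and Benjamini-Hochberg adjustment over all windows. On the right side 65 of 117 windows were higher in aged cells at an adjusted p under 0.05 (limma), 55.6% of the side, against 22.5% of all windows tested, and 0 were lower, against 12.1% of all windows. At an unadjusted p under 0.05, 89 right-side windows were higher and 0 lower, against 572 higher and 436 lower of the 2207 windows outside chromosome XII. On the left side 18 of 85 windows were higher, 21.2%, and 8 were lower, 9.41%, both near the shares for all windows. The median coefficient was 0.21 on the right side, 0.01 on the left and -0.01 outside chromosome XII. Neighbouring windows share reads, and of the windows that do not overlap, 13 of 24 on the right (54.2%) and 4 of 17 on the left (23.5%) were called in either direction, against 146 of 446 (32.7%) outside chromosome XII. Calls depended on the libraries in the fit. Without the wild-type libraries and without the spt3 libraries 0 windows of either side passed, against 0.537% and 0% of all windows called higher. At an unadjusted p under 0.05, 68 and 88 right-side windows were higher in these fits. The same count was not made outside chromosome XII, so these numbers have no background and do not replace the lost calls. Without the rad52 libraries 39 right-side windows passed (33.3%), against 20.7% of all windows called higher. With the mean of both aged libraries in place of each, which does not count them as independent, 28 right-side windows passed (23.9%), against 15.4% of all windows.

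**Figure D3:**
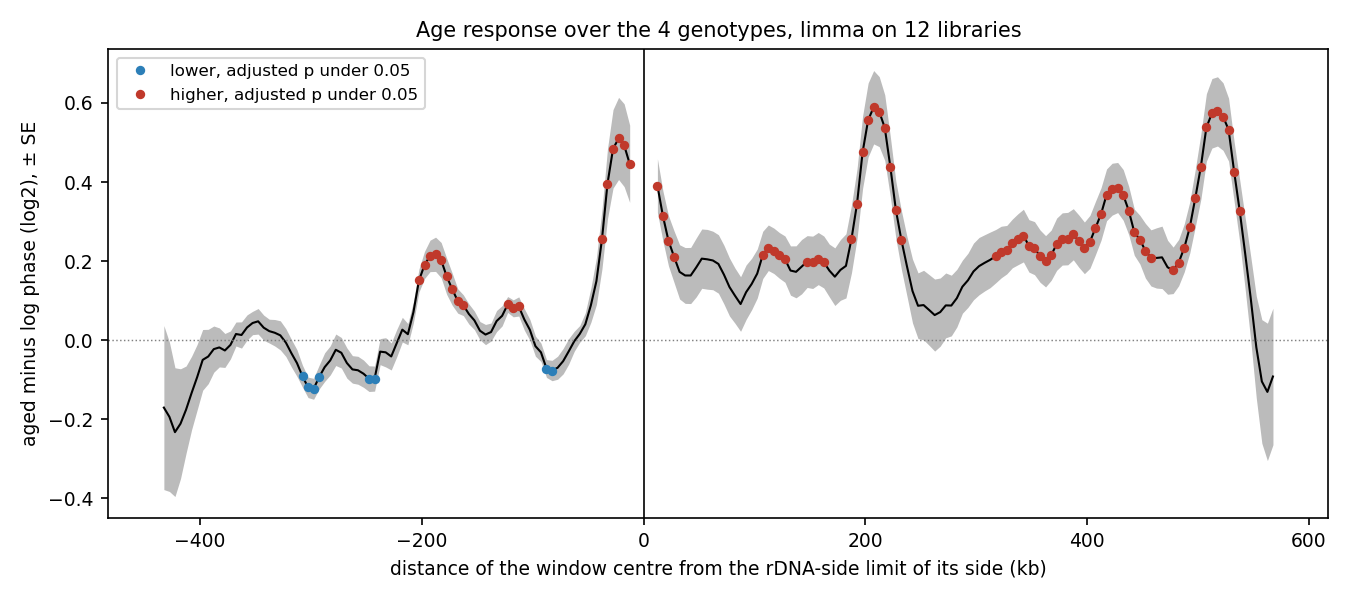
Fitted difference between aged and log phase libraries on the log2 scale (line, with ± 1 SE shaded) against the distance of the window centre from the rDNA-side limit of its side. Red points mark windows higher in aged cells at an adjusted p under 0.05 and blue points windows lower: 65 red points lie on the right side and 18 on the left, and all 8 blue points lie on the left side.

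Windows called higher on the right side formed 6 runs that covered much of it. The runs were chrXII:495001-535000 next to the rDNA (4 windows), chrXII:590001-635000 (5 windows), chrXII:630001-670000 (4 windows), chrXII:670001-740000 (10 windows), chrXII:800001-965000 (29 windows) and chrXII:960001-1045000 (13 windows). On the left side they formed 3 runs, chrXII:230001-295000 (9 windows), chrXII:310001-345000 (3 windows) and chrXII:395001-445000 next to the rDNA (6 windows). The windows called lower on the left side lay around the centromere at chrXII:125001-165000 (4 windows), at chrXII:185001-215000 (2 windows) and at chrXII:345001-375000 (2 windows). The other right-side windows, with the windows of NOP56, TUB4 and CDC25 and those at the chromosome end among them, missed the threshold.

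The response of rad52 cells was set against that of the other 3 genotypes together by an interaction term fitted over all 12 libraries. After adjustment 0 of 117 right-side windows passed, as did 0% of all 2423 windows in either direction, with a lowest adjusted p on the right side of 0.127 (limma). Before adjustment, however, 89 right-side windows had p under 0.05 (limma), all higher in rad52 cells, against 0 of 85 left-side windows and 69 of 2207 elsewhere, of which 32 were higher and 37 lower. The median interaction was 0.38 on the right side, 0.05 on the left and -0.001 outside chromosome XII. Among windows that do not overlap, 17 of 24 on the right side and 14 of 446 outside chromosome XII had an unadjusted p under 0.05. Both aged rad52 libraries exceeded all 6 other aged libraries in 105 of 117 right-side windows (89.7%), in 5 of 85 left-side windows (5.88%) and in 165 of 2207 windows elsewhere (7.48%).

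For the other genotypes the same interaction gave fewer windows before adjustment and 0 on either side after it. In sac3 cells the response was below that of the other 3 genotypes together, rad52 cells included, in all 117 right-side windows, with a median of -0.24. Outside chromosome XII it was above theirs in 1268 of 2207 windows. On the right side 10 windows had an unadjusted p under 0.05 and 0 passed, as did 0% of all windows. The sac3 response was not compared with each genotype alone. In spt3 cells the median was -0.15 on the right side and -0.06 on the left, with 0 and 5 windows at an unadjusted p under 0.05, 0 windows passing on either side and 0% of all windows called. In the wild type the median was 0.003 on the right side and 0.04 on the left, with 0 windows at an unadjusted p under 0.05 on either side, against 0.33% of all windows called higher and 0% lower after adjustment. The median SE of the wild-type interaction was 0.17 on the right side and 0.08 on the left.

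A further change between 24 h and 48 h was not detected over the genotypes together. A change in the wild type alone could not be tested. The contrast of 48 h minus 24 h had a median of 0.06 on the right side, 0.03 on the left and 0.004 outside chromosome XII. It was positive in 109 of 117 right-side windows, 65 of 85 left-side windows and 1221 of 2207 windows elsewhere. After adjustment 0 windows of either side passed, as did 0% of all windows, and at an unadjusted p under 0.05 there were 0 on the right and 5 on the left, all higher at 48 h (limma).

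The course along the chromosome differed between genotypes in its floor, with maxima at similar places. In rad52 cells the medians of the right-side segments (100 kb by window start, the first being 5 kb longer) lay between 1.37 and 1.43 at 48 h and between 1.36 and 1.44 at 24 h, so that its segment medians were close to each other. In the wild type at 48 h the segments lay between 1.16 (from 700 kb) and 1.39 (from 1000 kb), and spt3 cells ranged between 0.915 and 1.21. The sac3 cells ranged between 0.669 and 1.08 at the same age. In both of these mutants the segment from 1000 kb was the lowest and the one from 900 kb the highest. The segment from 1000 kb has 16 windows, among them the 5 short windows at the chromosome end, which reach into repeated sequence. On the left side 4 of the 5 segments lay between 0.886 and 1.12 in all genotypes at 48 h, and the segment from 400 kb, next to the rDNA, stood at 1.19 in rad52 cells, 1.56 in spt3 cells, 1.67 in sac3 cells and 1.56 in the wild type.

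**Figure D4:**
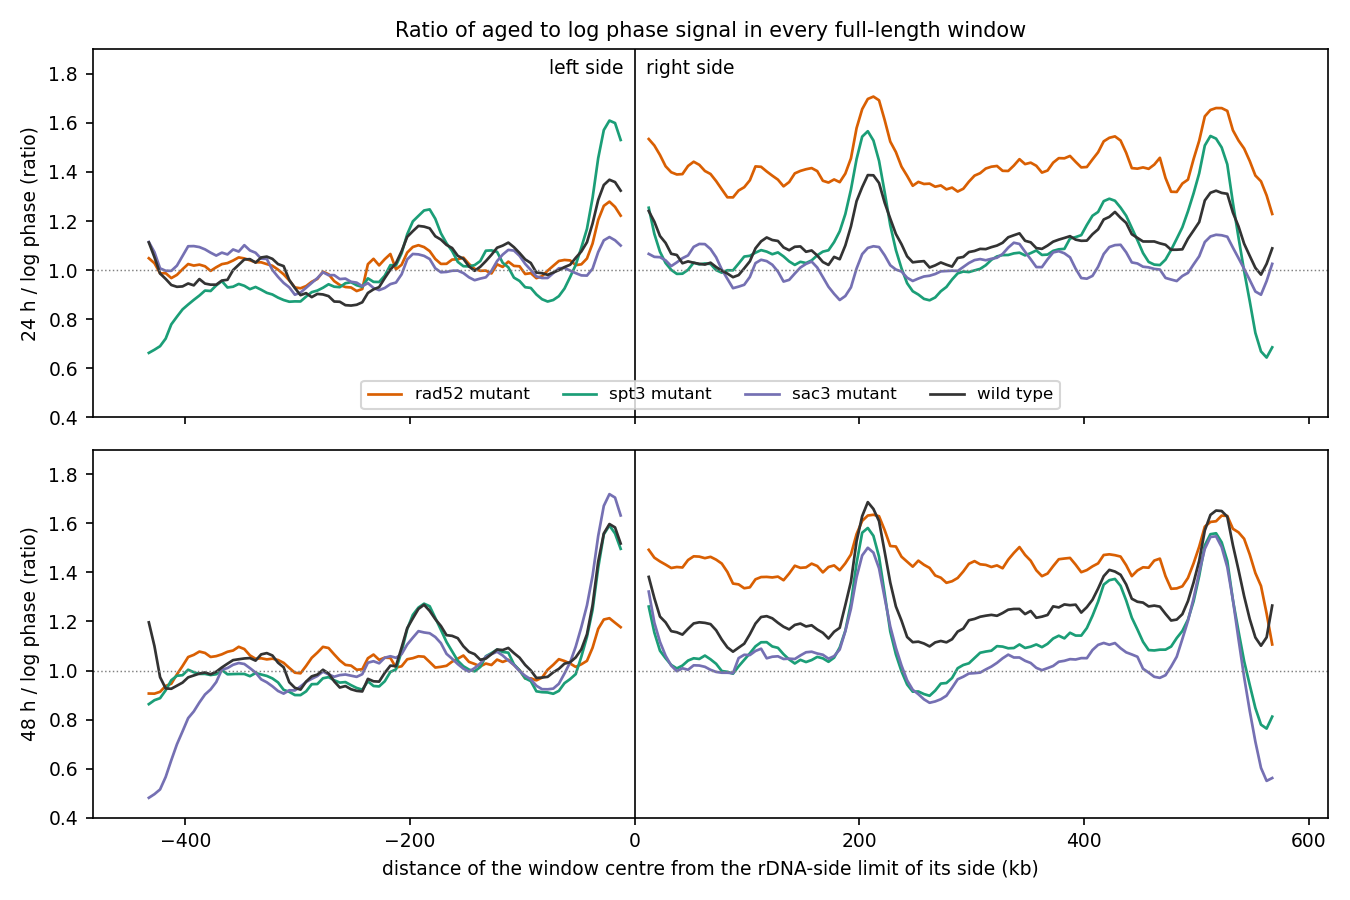
Ratio of aged to log phase signal of the same genotype in every full-length window (y axis, 24 h above and 48 h below) against the distance of its centre from the rDNA-side limit of its side (kb, negative on the left side). The rad52 cells ran near 1.4 along most of the right side, maxima of the 4 genotypes lay at similar places, and at 48 h sac3 cells dropped to 0.482 in the first window of the chromosome.

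The profiles of the 4 genotypes resembled each other in shape. Over the 112 full-length right-side windows the Pearson correlation of log2 ratios between genotypes lay between 0.72 and 0.91 at 48 h (6 pairs) and between 0.47 and 0.91 at 24 h. Over the 85 left-side windows it lay between 0.58 and 0.92 at 48 h and between 0.25 and 0.87 at 24 h. These are descriptions across overlapping windows, whose GC content and mappability are common to all libraries.

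The 5 windows of the right side named for the smallest p include its highest maxima. The first was chrXII:1010001-1035000, which holds SIR3, a silencing protein of telomeres and silent mating loci, and the ribosomal protein genes RPS1A and RPL6B. In rad52 cells the log phase signal was 15561, with 25658 at 24 h and 25365 at 48 h, and in spt3 cells the 3 values were 15128, 21649 and 21889. It was 15094, 17149 and 21458 in sac3 cells and 15461, 20272 and 25157 in the wild type. All 8 aged libraries lay above all 4 log phase libraries, and the age response was 0.53 ± 0.08 (SE), with an adjusted p of 0.011 (limma). Choice of a window by its p favours such a separation, which is no further support, and its share over all windows was not counted. The highest age response of a window outside chromosome XII was 0.54. At 48 h the highest ratios there were 1.23 in rad52 cells and 1.76 in spt3 cells. They were 1.85 in sac3 cells and 1.68 in the wild type.

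The window chrXII:695001-720000, with YSH1, an endonuclease of mRNA 3′ end processing, and CTS1, the chitinase of cell separation, had the highest response of the 5. It gave 16897, 28846 and 27623 in rad52 cells, 17042, 26044 and 26396 in spt3 cells, 16746, 18376 and 24794 in sac3 cells and 17357, 24063 and 28783 in the wild type at log phase, 24 h and 48 h. Groups did not overlap here either, again in a window chosen by its p, and the response was 0.58 ± 0.09 (SE, adjusted p = 0.011, limma). In both windows the sac3 library of 24 h was the lowest of the aged libraries.

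The window around BDF1, a bromodomain subunit of TFIID, at chrXII:910001-935000 had ratios of 1.54 and 1.47 in rad52 cells, 1.28 and 1.37 in spt3 cells, 1.10 and 1.11 in sac3 cells and 1.24 and 1.40 in the wild type at 24 h and 48 h. Its response was 0.39 ± 0.06 (SE, adjusted p = 0.011, limma). At the rDNA end of the right side, chrXII:495001-520000 held IDP2, the cytosolic NADP-dependent isocitrate dehydrogenase, and CBF5, the pseudouridine synthase of ribosomal RNA. Its ratios were 1.53 and 1.49 in rad52 cells, 1.25 and 1.26 in spt3 cells, 1.07 and 1.32 in sac3 cells and 1.24 and 1.38 in the wild type, with a response of 0.39 ± 0.07 (SE, adjusted p = 0.011, limma). The fifth, chrXII:985001-1010000 with SEN1, a helicase of transcription termination, gave 0.44 ± 0.08 (SE, adjusted p = 0.011, limma).

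On the left side the highest window with a call was chrXII:410001-435000. It holds RRN5, a subunit of the upstream activating factor of RNA polymerase I, SLX4, a scaffold of structure-specific endonucleases, and the origin ARS1215. In rad52 cells the log phase signal was 16751, with 21428 at 24 h and 20325 at 48 h, and in spt3 cells the 3 values were 16748, 26954 and 26647. The sac3 cells gave 16401, 18612 and 28189 and the wild type 17490, 23931 and 27931. The aged libraries all lay above the log phase ones, as choice of the window by its p favours. The rad52 cells gained less than the others at 48 h, and the response was 0.51 ± 0.10 (SE, adjusted p = 0.011, limma). Outside chromosome XII the highest response was 0.54.

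Further from the rDNA, chrXII:235001-260000 with STU2, a microtubule polymerase, and SPT8, another SAGA subunit, had ratios of 1.09 and 1.05 in rad52 cells and 1.20 and 1.23 in spt3 cells. They were 1.07 and 1.13 in sac3 cells and 1.16 and 1.21 in the wild type, and the response was 0.19 ± 0.03 (SE, adjusted p = 0.011, limma). The other called windows of the rule, chrXII:310001-335000 and chrXII:270001-295000, were raised by 0.09 each. With a GC correction these had differences of -0.02 and 0.03 and neither was called.

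**Figure D5:**
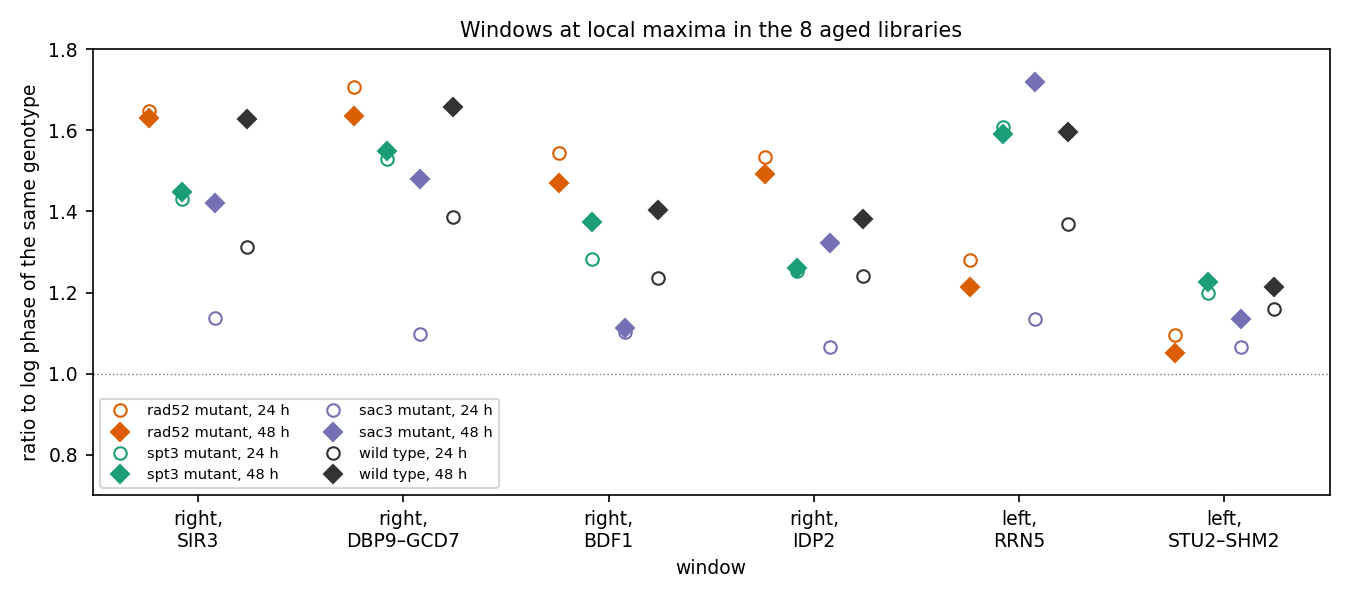
Ratio to log phase of the same genotype (y axis) at 24 h (open circles) and 48 h (filled diamonds) in 4 right-side and 2 left-side windows, named by genes they hold. In the 4 right-side windows both rad52 libraries lay between 1.47 and 1.71, while in the RRN5 window of the left side they stood at 1.28 and 1.21, below both libraries of spt3 cells and of the wild type.

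Set against the median of their own side, the maxima stood out less in rad52 cells than in the others at 48 h. The SIR3 window lay at 1.14 times the median ratio of the right side in rad52 cells, 1.33 in spt3 cells, 1.36 in sac3 cells and 1.33 in the wild type. The RRN5 window lay at 1.17 times the left-side median in rad52 cells, 1.62 in spt3 cells, 1.72 in sac3 cells and 1.55 in the wild type. The same windows were already above their side at log phase, at 1.09 to 1.15 times the median full-length window for SIR3 and at 1.24 to 1.34 times for RRN5. Across the unique full-length windows of the right side (n = 80), the mean log2 ratio over the 8 aged libraries had a Spearman correlation of 0.47 with the mean log phase level, of 0.22 with GC content and of 0.33 with the number of origins. On the left side (n = 71) these were 0.52, 0.67 and -0.21, and outside chromosome XII (n = 1506) they were 0.67, 0.46 and -0.12. Ratio and log phase level share the log phase libraries, and overlapping windows share reads, so these values carry no p.

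The windows called lower on the left side had small and even changes. The centromere-side window chrXII:135001-160000, with ORC3, a subunit of the origin recognition complex, and RTT109, a histone H3 acetyltransferase, had ratios of 0.926 and 0.989 in rad52 cells, 0.872 and 0.900 in spt3 cells, 0.908 and 0.935 in sac3 cells and 0.898 and 0.922 in the wild type. All 8 lay below 1, and the response was -0.12 ± 0.03 (SE, adjusted p = 0.012, limma), but with a GC correction it was -0.04 (adjusted p = 0.23, limma) and no longer called. The window nearest CEN12, chrXII:140001-165000, gave -0.09 ± 0.03 (SE, adjusted p = 0.041, limma). The other such windows, chrXII:345001-370000 and chrXII:190001-215000, fell by 0.07 and 0.10 on the log2 scale, with adjusted p-values of 0.038 and 0.043 (limma). With a GC correction chrXII:190001-215000 was the 1 left-side window called lower, and with re-centring on the windows outside chromosome XII 2 were. Over all windows 10.2% and 8.67% were called lower under these settings.

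Well-known genes of both sides were taken from a list. By the annotation 15 genes of the list lay on the right side, in 13 distinct windows, and 12 on the left. The window of 10 right-side genes was called higher, that of 0 lower, and the window of 11 exceeded 1 in all 8 aged libraries, with a median coefficient of 0.23 beside 0.21 for the whole side. Over all windows tested 22.5% were called higher and 12.1% lower, and 52.1% of right-side windows exceeded 1 in all 8 aged libraries, against 18.0% outside chromosome XII. On the left 2 of 12 were called higher, 2 lower, and 2 exceeded 1 throughout, near those shares for all windows, with a median of 0.004 beside 0.01 for the side. ACS2, an acetyl-CoA synthetase gene, lies on neither side by the rule and was left out.

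The window of CDC42, needed for cell polarity, had ratios of 1.42 and 1.37 in rad52 cells, 1.07 and 1.10 in spt3 cells, 1.03 and 1.08 in sac3 cells and 1.09 and 1.19 in the wild type, with a response of 0.22 ± 0.06 (SE, adjusted p = 0.024, limma). EST1, a telomerase subunit, and BNA5, the kynureninase of NAD synthesis, shared a window with a response of 0.23 ± 0.06 (SE, adjusted p = 0.016, limma). TOP3, a type I topoisomerase, gave 0.23 ± 0.06 (SE, adjusted p = 0.018, limma). The windows of CDC42, of EST1 and BNA5, and of TOP3 start at 590001, 595001 and 600001. They overlap and share reads, so they are not separate results. Among metabolic and repair genes, ILV5, of branched-chain amino acid synthesis, had 0.26 ± 0.07 (SE, adjusted p = 0.017, limma) and SMC6, of the Smc5/6 complex, had 0.25 ± 0.07 (SE, adjusted p = 0.020, limma). In all of these windows both rad52 libraries exceeded the other 6 aged libraries.

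Several right-side genes missed the threshold for age although the rad52 libraries were high there. CDC25, the Ras guanine nucleotide exchange factor, lies in the window chrXII:740001-765000, whose ratios were 1.35 and 1.43 in rad52 cells but 0.883 and 0.904 in spt3 cells, 0.974 and 0.883 in sac3 cells and 1.04 and 1.11 in the wild type. Its age response was 0.08 ± 0.09 (SE, adjusted p = 0.51, limma), and its rad52 interaction was the highest of the listed genes at 0.53. MET17 (also MET15), the sulfhydrylase of methionine synthesis, gave 0.19 ± 0.08 (SE, adjusted p = 0.082, limma), in strains that are heterozygous for a deletion of it according to the strain list. In the 5 kb bin with MET17, however, the log phase signal was 1576 in rad52 cells and 2200 to 2425 in the other genotypes. Whether the rad52 strain is heterozygous there was not tested. NOP56 of the box C/D snoRNP, TUB4, the gamma-tubulin, and HSP60, the mitochondrial chaperonin, had responses of 0.21, 0.17 and 0.18 with adjusted p-values of 0.061, 0.11 and 0.069 (limma).

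Heat shock and stress genes of the left side showed little change. The windows of UBI4, the polyubiquitin gene, HSP104, the disaggregase, and SSA2, an Hsp70, had responses of -0.02, 0.03 and 0.05, none of which passed. HOG1, the osmotic stress kinase, CCW12, a cell wall mannoprotein, CDC45, of the replicative helicase, GAL2, the galactose permease, and RAD5, of post-replication repair, lay between -0.07 and 0.05 and did not pass either. ADE16 of purine synthesis and MDN1, the ribosome assembly ATPase (REA1 in the annotation), lay in windows called lower, at -0.10 and -0.07. These are the windows chrXII:190001-215000 and chrXII:345001-370000 given above, not further results. The windows of HSP104 and SSA2 overlap and share reads, as do those of ADE16 and RAD5. Neighbouring windows among those of CDC45, MDN1, CCW12 and HOG1 overlap too.

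The windows at the ends of the chromosome were compared with the rest of their sides by their medians. In the 7 full-length right-side windows centred within 50 kb of the end, the median ratio at 48 h was 1.40 in rad52 cells, 0.847 in spt3 cells, 0.710 in sac3 cells and 1.21 in the wild type. At 24 h it was 1.39, 0.744, 0.960 and 1.06 in the same order. In the full-length windows farther from that end it was 1.43, 1.09, 1.05 and 1.22 at 48 h and 1.42, 1.07, 1.03 and 1.11 at 24 h, so that the gap was widest in spt3 cells at 24 h and in sac3 cells at 48 h. In the 8 windows at the left end it was 0.942, 0.940, 0.601 and 0.962 at 48 h and 0.996, 0.750, 1.04 and 0.955 at 24 h, against 1.04, 0.986, 1.01 and 1.04 at 48 h and 1.02, 0.952, 0.997 and 1.02 at 24 h in the rest of the left side. The left end thus lay below the rest of its side in 7 of the 8 aged libraries, all but that of sac3 cells at 24 h. The right end did so in all 8, and the ends of the other chromosomes in 5 of 8. End windows of the other chromosomes (234 windows) had medians of 0.980 in rad52 cells, 0.920 in spt3 cells, 0.799 in sac3 cells and 0.982 in the wild type at 48 h, and of 1.02, 0.858, 1.02 and 0.995 at 24 h. Their windows farther from an end had 1.00, 1.01, 1.03 and 0.989 at 48 h and 0.999, 1.01, 1.01 and 0.991 at 24 h.

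The outermost windows hold repeated subtelomeric sequence and give values of such repeats rather than of this chromosome alone. In the first window of the chromosome, with members of the PAU and Y′ families, 50.5% of 75-base sequences occur at a single place in the genome, and in the last, which is 3177 bases long, 0% do. The first window had ratios of 1.05 and 0.906 in rad52 cells, 0.663 and 0.863 in spt3 cells, 1.11 and 0.482 in sac3 cells and 1.11 and 1.20 in the wild type. The last had 1.14 and 0.946, 0.724 and 0.844, 1.23 and 0.537, and 1.26 and 1.42 in the same order. Neither passed the test for age, with adjusted p-values of 0.53 and 0.87 (limma).

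At the limits of the rule, the last window inside on the left (chrXII:420001-445000) had ratios at 48 h of 1.18 in rad52 cells, 1.50 in spt3 cells, 1.63 in sac3 cells and 1.52 in the wild type, and the first outside (chrXII:425001-450000) had 1.12, 1.35, 1.50 and 1.37 in the same order. On the right, the first window inside (chrXII:495001-520000) had 1.49, 1.26, 1.32 and 1.38. The window just outside it (chrXII:490001-515000), of which 98.5% of 75-base sequences are unique, had 1.50, 1.40, 1.36 and 7.12, with wild-type signals of 30068 at log phase and 214192 at 48 h. Moving the right limit by a single window would thus have brought in a window in which the wild type rose 7.12-fold.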

How the data were processed

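Genomic DNA libraries of aged and log phase MEP diploids were sequenced as single-end reads. According to the methods the authors trimmed reads, aligned them with Bowtie 2 to R64-1-1 and counted them in windows of 25 kb every 5 kb. The submitters' processing notes name Trim Galore 0.6.6 and HISAT2 2.1.0, and the aligner behind the table was not settled. The deposited signal is the read number per window multiplied by a size factor per library. It was used as deposited, with no correction for window length, GC content or mappability. The methods describe removal of windows with Ty elements, LTRs, mitochondrial DNA, ENA and CUP1 before normalisation, but the deposited table holds such windows.

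Chromosome lengths of the reference equalled the last window ends for 17 of 17 sequences, and genes, origins and sequences were read from it (RefSeq, R64). Values were whole multiples of a step taken as 1 read within 0.1 for at least 99.9% of windows. This step served only to describe depth, since too few low values exist to recover reads with certainty.

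Fits used limma 3.58.1 (R 4.3.3) on log2(signal + 1) of 2423 nuclear windows, with Benjamini-Hochberg adjustment over all of them and a threshold of 0.05, and the same function was tested on simulated data. Terms were genotype and age, an interaction of age with 1 genotype, or time with 3 levels. Both aged libraries of 1 genotype entered as independent samples, and nothing says that samples came from separate cultures, so p-values may be too small. Windows under 99% unique by 75-base sequences numbered 37 on the right side and 14 on the left. Named windows were those at the limits, ends and centromere, the 5 non-overlapping windows per side and direction with the smallest p among those called, and those centred nearest to well-known genes of a list. A left-side gene of this list is counted but not reported here. Members, lists and tests were chosen with earlier results of these data known. Alternatives changed the pseudocount (to 100), the centring, the windows kept, GC content by lowess, the aged libraries used and the genotypes used. Other steps used Python 3.11.15, numpy 2.4.6, pandas 2.3.3, statsmodels 0.14.6 and matplotlib 3.10.9.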

Additional observations from a re-analysis of the deposited data

Results flagged for a closer look

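Several results had both aged libraries of a genotype on one side of log phase and both of another genotype on the other side. These differences between pairs of genotypes were not tested, and each is given as the difference of the mean log2 ratios over both ages. The median of the left side differed by 0.10 between the rad52 and spt3 mutants, by 0.0476 between the rad52 and sac3 mutants, by 0.0881 between the wild type and the spt3 mutant (wild type higher) and by 0.0373 between the wild type and the sac3 mutant (wild type higher). In the left-side segment from 0 kb the rad52 mutant exceeded the spt3 mutant by 0.14 and the wild type by 0.0891. In that from 300 kb the rad52 mutant exceeded the spt3 mutant by 0.0564, and the wild type exceeded the spt3 mutant by 0.10. On the right side the segment from 700 kb stood higher than in the sac3 mutant by 0.51 in the rad52 mutant and by 0.17 in the wild type. The segment from 1000 kb stood higher than in the spt3 mutant by 0.69 in the rad52 mutant and by 0.59 in the wild type. In the first and last windows of the chromosome the wild type exceeded the spt3 mutant by 0.61 and 0.78.

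The 14 chromosome XII windows outside the rule, which belong to no comparison of the report, exceeded log phase in all 8 aged libraries. The higher of their median ratios over both ages was 1.48 in the rad52 mutant, 1.33 in the spt3 mutant, 1.28 in the sac3 mutant and 13.2 in the wild type.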

How the results depend on the processing

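The mean difference between right and left sides stayed positive under all 11 alternatives at each age, between 0.15 and 0.28 at 48 h and between 0.11 and 0.25 at 24 h, and moved by less than the SD over genotypes. Counts of windows called in the age response moved most. Right-side windows called higher numbered 39 of the 67 left (58.2%, against 22.4% of all) without Ty, LTR, ENA and CUP1 windows, where fewer windows were tested. They numbered 39 (33.3%, against 20.7%) without the rad52 libraries and 28 (23.9%, against 15.4%) with the mean of both ages. With the 48 h libraries only they numbered 13 (11.1%), out of 13 called higher over all windows. They numbered 0 with the 24 h libraries only, without the wild-type libraries or without the spt3 libraries, against 0%, 0.537% and 0% of all windows. Left-side windows called higher numbered 0 with the libraries of 1 age only, without the wild type or without spt3, against at most 0.537% of all windows. Left-side windows called lower numbered 2 after re-centring (2.35%, against 8.67% of all) and 1 with GC correction (1.18%, against 10.2%). They numbered 2 without the sac3 libraries (2.35%, against 11.1%) and 2 with the mean of both ages (2.35%, against 6.31%). With 1 age only, without the wild type or without spt3 they numbered 0, as did those of all windows. With 24 h libraries only, which set a single aged spt3 library against the others, the spt3 interaction called 6 right-side (5.13%) and 5 left-side (5.88%) windows lower, against 6.64% of all windows. Of 35 named windows tested, 20 were called in the age response. All 20 lost the call with 24 h libraries only, without the wild type and without spt3, 16 with 48 h only, 10 with the mean of both ages, 9 with GC correction, 4 without rad52, 3 without sac3 and 3 after re-centring. The age response of chrXII:310001-335000 was -0.0182 with GC correction. The causes of these shifts were not tested. Labels give no replicate numbers to pair samples by, and the genotype term sets aged against log phase within each genotype. Depth gives a counting error of at most 1.12% in the median full-length window of a side in a single library. Windows with fewer reads, short windows and bins of 5 kb have a larger error, as does a ratio of 2 libraries.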

Other observations

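Signals in 5 kb bins of the right side were recovered by subtracting neighbouring windows, starting from the short windows at the chromosome end. This was chosen after the window profiles had been seen, it has no test, and reads across a bin edge are counted in both bins. The highest bin by the mean over the 8 aged libraries was chrXII:1010001-1015000, which holds ECM30, DIF1, CAR2, LSM3 and MRPL4 in whole or in part. Its ratios at 24 h and 48 h were 1.92 and 1.84 in rad52 cells, 1.79 and 1.86 in spt3 cells, 1.28 and 1.69 in sac3 cells and 1.54 and 1.90 in the wild type. The next was chrXII:700001-705000 with YLR278C, a zinc cluster protein, and RSO55, at 1.93 and 1.78, 1.74 and 1.83, 1.21 and 1.69, and 1.54 and 1.87 in the same order. The bin chrXII:920001-925000, with BDF1 and DUS3, reached 1.61 and 1.56 in rad52 cells and 1.20 and 1.09 in sac3 cells. The highest bin of a window of 25 kb cannot lie below that window, so the greater height of these bins is no separate result.

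At the right end the lowest bin was chrXII:1055001-1060000, with NBP1 and GAB1, at 1.25 and 1.20 in rad52 cells, 0.539 and 0.707 in spt3 cells, 0.858 and 0.519 in sac3 cells and 0.939 and 1.05 in the wild type. The bin chrXII:730001-735000, which holds MET17, had a log phase signal of 1576 in rad52 cells, 2425 in spt3 cells, 2214 in sac3 cells and 2200.15 in the wild type. The bins on either side of it, chrXII:725001-730000 and chrXII:735001-740000, had 2609 and 2679 in rad52 cells and 2735 and 2756 in the wild type. The reason for the lower rad52 value was not tested.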
